A study of Homo sapiens with 16 samples.

Results

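The 52 genes described here encode the machinery that makes ribosomes: RNA polymerase I factors, nucleolar proteins, the protein cores of the small nucleolar RNPs, and the assembly factors of the 40S and 60S subunits. They were chosen by name for their role in this pathway, and the rule describes many of them as MYC targets. No measured value entered the rule, although the pathway was picked for description with earlier results of these data known. They are 52 of the 62703 genes in the count table. Their mRNAs were measured by BRB-seq, a pooled 3' RNA sequencing method, in 16 libraries of prostate cancer spheroids. LNCaP, 22Rv1, and PC3 are established human prostate cancer cell lines. Cells received 25 pmol of a control siRNA (siCtrl) or of siRNA against MED12 (siMED12), which encodes a Mediator subunit that activates the kinase CDK8, and were grown for 3 days as a monolayer and 4 days as spheroids, 7 days in all. The groups were LNCaP siCtrl (n = 3), LNCaP siMED12 (n = 3), 22Rv1 siCtrl (n = 3), 22Rv1 siMED12 (n = 2), PC3 siCtrl (n = 3), and PC3 siMED12 (n = 2), and replicate 2 of the 22Rv1 and PC3 siMED12 groups was not analysed here. The study describes its experiments in general as having biological replicates, whereas the labels of these libraries do not say which were separate cultures, so p-values measure the spread between these libraries.

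Ribosome production starts in the nucleolus, where RNA polymerase I transcribes a long precursor of the ribosomal RNAs. Box C/D particles methylate this precursor, box H/ACA particles convert some of its uridines to pseudouridine, and the small subunit processome and the 60S assembly factors fold, cut, and package it with ribosomal proteins. The transcription factor MYC is known as an activator of many of these genes, and it binds the E-box sequence CACGTG.

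Libraries held between 479118 and 993807 counts, so that 3 counts correspond to between 3.15 and 6.22 CPM (counts scaled to the library total). Of the 52 genes, 51 passed the filter on low counts and were tested among 10566 genes. The exception was NOP2, a methyltransferase of the 60S pathway, which had 0 counts in all 16 libraries. By position, 54.4% of its exon bases are shared with another gene annotated on the same strand, which also had 0 counts. NPM1 has many processed copies in the genome, and between 23.7 and 30.7% of the summed count of NPM1 and its pseudogenes in each library was assigned to the pseudogenes, so its level is uncertain. In bulk samples, fewer cells of a type and less RNA per cell cannot be told apart. A pair of siMED12 libraries was left out in turn as a check. 22Rv1 replicate 3 held 4.22% of the PC3 level of 24 genes that are restricted to PC3. LNCaP replicate 2 differed from its group mates by a chi-square per gene of 2.77 and 2.68, against 1.84 between these, and had the highest mitochondrial share of counts of the 16 libraries (12.9%). The other LNCaP siMED12 libraries had 10.5 and 10.3% and the LNCaP siCtrl libraries between 8.6 and 10.1%, and the part of this in the results was not tested. Between control libraries the chi-square per gene reached 3.19, for PC3 siCtrl replicates 1 and 2, and 2.77, for 22Rv1 siCtrl replicates 1 and 3. PC3 siMED12 replicate 3 had the fewest counts (479118) and held 2.61% of the LNCaP level of 3 genes restricted to LNCaP. The main siMED12 values of 22Rv1 and LNCaP are also given without 22Rv1 siMED12 replicate 3 and LNCaP siMED12 replicate 2. Values of single genes in PC3 with a library left out are not given here.

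MED12 itself was measured with few counts. In LNCaP it was at 9.94, 12.9, and 11.7 CPM in siCtrl and at 6.99, 6.67, and 10.3 CPM in siMED12 libraries. In 22Rv1 it was at 23.4, 16.7, and 19.2 CPM in siCtrl and at 7.42 and 8.98 CPM in siMED12 libraries. In PC3 it was at 28.4, 8.41, and 18.8 CPM in siCtrl and at 15.8 and 14.5 CPM in siMED12 libraries. The siMED12 libraries were below all siCtrl libraries in 22Rv1, whereas the groups overlapped in LNCaP and PC3. The estimate was -1.28 in 22Rv1 on the log2 scale (SE 0.46, edgeR adjusted p = 0.175). LNCaP had -0.50 (SE 0.46, edgeR adjusted p = 0.878), and PC3 had -0.22 (SE 0.43, edgeR adjusted p = 0.987). The study itself reports a highly efficient knockdown of MED12 in its spheroids.

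MED12 knockdown was compared with the control in each line to ask whether ribosome biogenesis mRNAs change. None of the 51 genes passed the edgeR quasi-likelihood test at an adjusted p of 0.05 in LNCaP, in 22Rv1, or in PC3. Over all 10566 genes the share called was 0.416% in LNCaP, 1.84% in 22Rv1, and 0% in PC3, so that a count of 0 among 51 genes is near the background. At an unadjusted p under 0.05 there were 5 genes in LNCaP, 3 in 22Rv1, and 0 in PC3, against 7.34, 11.7, and 4.99% of all genes. The median log2 fold change of the 51 genes was -0.021 in LNCaP, -0.12 in 22Rv1, and -0.012 in PC3, beside -0.0038, 0.0061, and -0.038 over all genes. In 22Rv1, 38 of the 51 estimates were below 0, compared with 48.7% of all genes. In LNCaP the number was 26 (50.4% of all genes), and in PC3 it was 29 (55.6% of all genes). The PC3 number was 31 without siCtrl replicate 1, 19 without replicate 2, and 22 without replicate 3. The shares of all genes in these PC3 fits are not given here. Without 22Rv1 siMED12 replicate 3 the 22Rv1 median was -0.076, and 33 estimates were below 0 (50.3% of all genes), as many as without replicate 1. Without LNCaP siMED12 replicate 2 the LNCaP median was -0.041, and 26 estimates were below 0. DESeq2, limma, and each of the other settings tried also called 0 of the tested members in these comparisons.

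**Figure D1:**
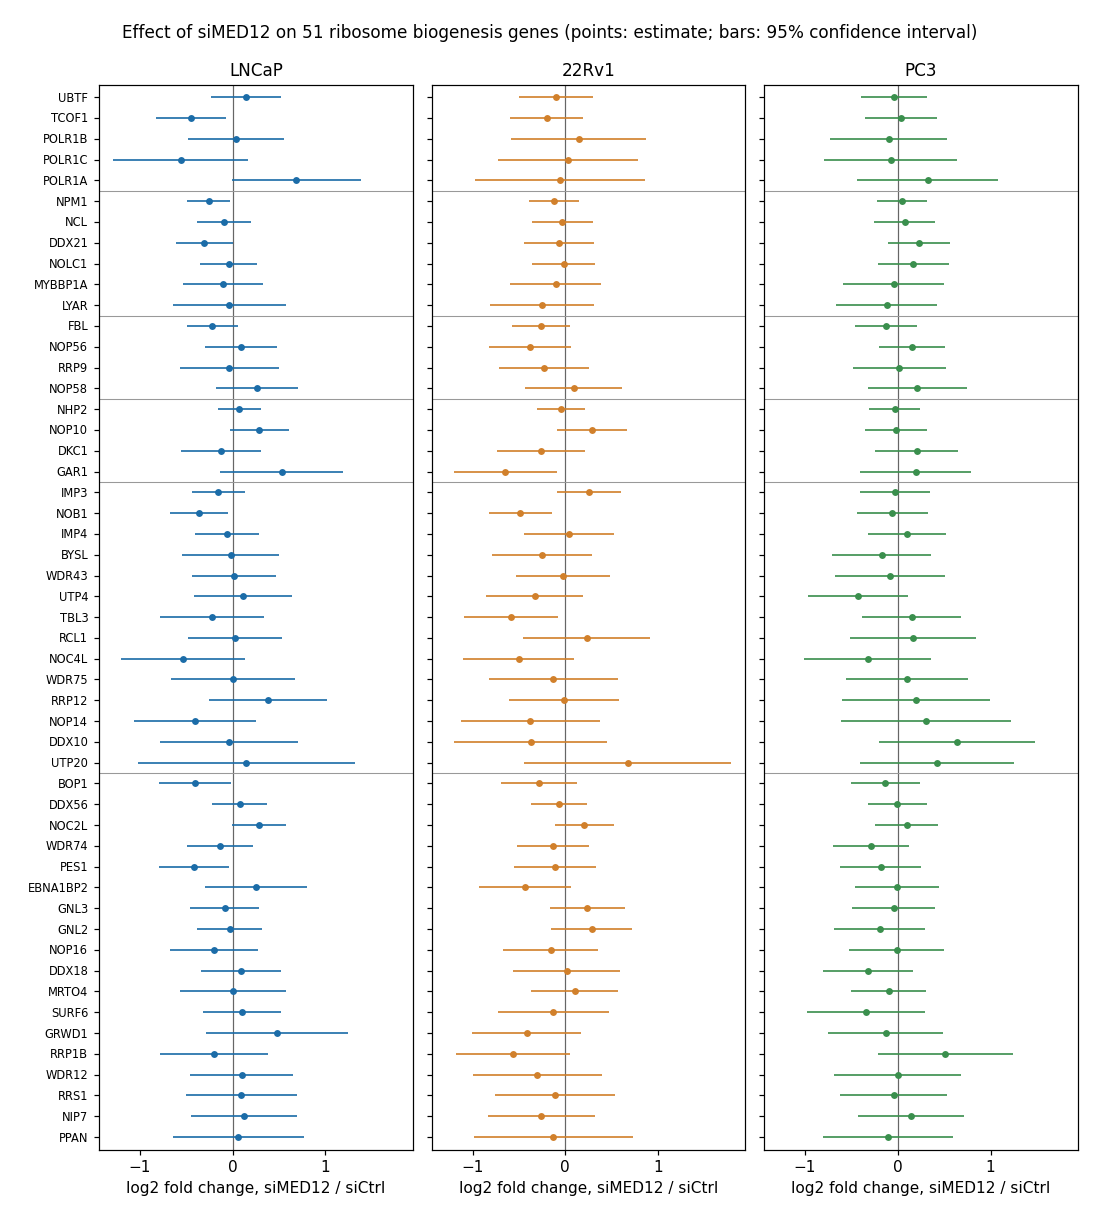
Log2 fold change (x axis, siMED12 over siCtrl) of the 51 tested genes (y axis, ordered by role as in the plot of control levels) in LNCaP, 22Rv1, and PC3, with points for estimates and bars for 95% confidence intervals. Most intervals cross 0, and in 22Rv1 38 of the 51 points lie below it (33 when either siMED12 library is left out).

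The intervals show how large a change could have been missed. The whole 95% interval lay within a 2-fold change in either direction for 43 genes in LNCaP, 43 in 22Rv1, and 45 in PC3. It lay within a 1.5-fold change for 24 genes in LNCaP, 14 in 22Rv1, and 21 in PC3. For the other tested members the interval reached or passed a 1.5-fold change, so a change of that size could have been missed. For single genes of low count, such as UTP20 with 1 to 18 counts per library, the data could not show a change of that size.

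In the RNA polymerase I group, POLR1A and POLR1B encode the largest catalytic subunits of the enzyme, UBTF binds the ribosomal DNA promoter, and TCOF1 (treacle) holds UBTF and the polymerase at the ribosomal genes. TCOF1 had the smallest unadjusted p of the members in LNCaP, with 82.8, 77.3, and 73.1 CPM in siCtrl and 62.9, 46.7, and 59.8 CPM in siMED12. The groups did not overlap, and the log2 fold change was -0.45 (SE 0.18, edgeR adjusted p = 0.56). POLR1A showed the opposite direction in LNCaP, with 13.3, 17.2, and 18 CPM in siCtrl and 21, 36, and 23 CPM in siMED12 (log2 fold change 0.69, SE 0.34, edgeR adjusted p = 0.677). UBTF had estimates of 0.15, -0.098, and -0.038 in LNCaP, 22Rv1, and PC3, and POLR1B had 0.038, 0.14, and -0.096.

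Among the nucleolar organisers, nucleolin (NCL) and nucleophosmin (NPM1) are abundant RNA-binding chaperones that together took between 23.3 and 32.7% of the counts of the members in each library. NPM1 was at 1002, 1076, and 1195 CPM in LNCaP siCtrl and at 852, 849, and 1034 CPM in LNCaP siMED12. The groups overlapped, and the log2 fold change was -0.26 (SE 0.11, edgeR adjusted p = 0.623). In 22Rv1 the estimate for NPM1 was -0.12 (SE 0.13), and in PC3 it was 0.044 (SE 0.13). For NCL the estimates were -0.095, -0.035, and 0.072, and the 95% interval in LNCaP ran from -0.39 to 0.20. DDX21, a helicase of the RNA polymerase I and snoRNA pathways, was at 133, 142, and 161 CPM in LNCaP siCtrl and at 104, 127, and 124 CPM in siMED12, and in PC3 at 156, 158, and 147 CPM in siCtrl and at 182 and 178 CPM in siMED12. The effect of siMED12 on DDX21 was 0.53 higher in PC3 than in LNCaP on the log2 scale (SE 0.22), the smallest unadjusted p of the members for that difference, with an edgeR adjusted p of 0.941, where 0.0284% of all genes were called.

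In the box C/D group, fibrillarin (FBL) is the methyltransferase and NOP56 a core scaffold. FBL was at 476, 417, and 463 CPM in LNCaP siCtrl and at 397, 344, and 422 CPM in siMED12. Its LNCaP estimate of -0.22 (SE 0.14) was followed by -0.26 (SE 0.15) for 22Rv1 and -0.13 (SE 0.17) for PC3. The mean over the 3 lines was -0.20 (SE 0.088, edgeR adjusted p = 0.508). NOP56 was at 84.6, 140, and 88.5 CPM in 22Rv1 siCtrl and at 83.8 and 73.1 CPM in siMED12, both below the control libraries (log2 fold change -0.38, SE 0.22, edgeR adjusted p = 0.518).

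In the box H/ACA group, dyskerin (DKC1) is the pseudouridine synthase, and GAR1, NHP2, and NOP10 are its partners. GAR1 was at 58.6, 66.9, and 56.5 CPM in 22Rv1 siCtrl and at 33.9 and 43.6 CPM in siMED12, without overlap (log2 fold change -0.65, SE 0.27, edgeR adjusted p = 0.306). In LNCaP it was at 19.9, 18.6, and 20.1 CPM in siCtrl and at 18.2, 48, and 19.5 CPM in siMED12, so that replicate 2 alone was high. The difference in effect between 22Rv1 and LNCaP was -1.18 (SE 0.42, edgeR adjusted p = 0.408), and it was -0.60 without that library. Over all genes 0.189% were called for this difference. DKC1 had estimates of -0.12, -0.26, and 0.20 in LNCaP, 22Rv1, and PC3.

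NOB1, the endonuclease that makes the final cut of the 18S rRNA, had the smallest unadjusted p of the members in 22Rv1 and for the mean over the lines. It was at 181, 181, and 151 CPM in 22Rv1 siCtrl and at 123 and 121 CPM in siMED12. In LNCaP it was at 136, 183, and 141 CPM in siCtrl and at 130, 105, and 122 CPM in siMED12. The groups did not overlap in either line, whereas in PC3 they did, with 106, 119, and 117 CPM in siCtrl and 103 and 118 CPM in siMED12. The log2 fold change was -0.48 (SE 0.17, unadjusted p = 0.00692, edgeR adjusted p = 0.159) in 22Rv1, -0.36 (SE 0.15, edgeR adjusted p = 0.59) in LNCaP, and -0.30 (SE 0.098, edgeR adjusted p = 0.277) as the mean over the 3 lines, for which 0.265% of all genes were called. TBL3, a small subunit processome protein, was at 40.3, 53.5, and 51.3 CPM in 22Rv1 siCtrl and at 29.7 and 34.6 CPM in siMED12 (log2 fold change -0.59, SE 0.25, edgeR adjusted p = 0.318). In PC3 the smallest unadjusted p was that of UTP4, another processome protein, at 46.4, 59.9, and 47.7 CPM in siCtrl and at 43.5 and 31.1 CPM in siMED12 (log2 fold change -0.43, SE 0.27, edgeR adjusted p = 0.974).

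In the 60S group, BOP1 and PES1 are subunits of the PeBoW complex, which is needed to mature the large subunit rRNAs. BOP1 was at 162, 119, and 132 CPM in LNCaP siCtrl and at 99.3, 72.1, and 136 CPM in siMED12, with overlap (log2 fold change -0.41, SE 0.19, edgeR adjusted p = 0.645). Its mean over the 3 lines was -0.28 (SE 0.11, edgeR adjusted p = 0.436). PES1 was at 76.2, 107, and 104 CPM in LNCaP siCtrl and at 50.4, 80.1, and 85.1 CPM in siMED12 (log2 fold change -0.42, SE 0.19, edgeR adjusted p = 0.63). RRP1B, a nucleolar protein of the 60S pathway, had the smallest unadjusted p for the difference between PC3 and 22Rv1, at 1.08 on the log2 scale (SE 0.47, edgeR adjusted p = 0.49), where 0.0946% of all genes were called. No member was called in any of these differences between lines. For PC3 minus 22Rv1, 2 members had an unadjusted edgeR p under 0.05, beside 9.16% of all genes. That number was 0 without PC3 siCtrl replicate 1, 2 without replicate 2, and 3 without replicate 3.

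**Figure D2:**
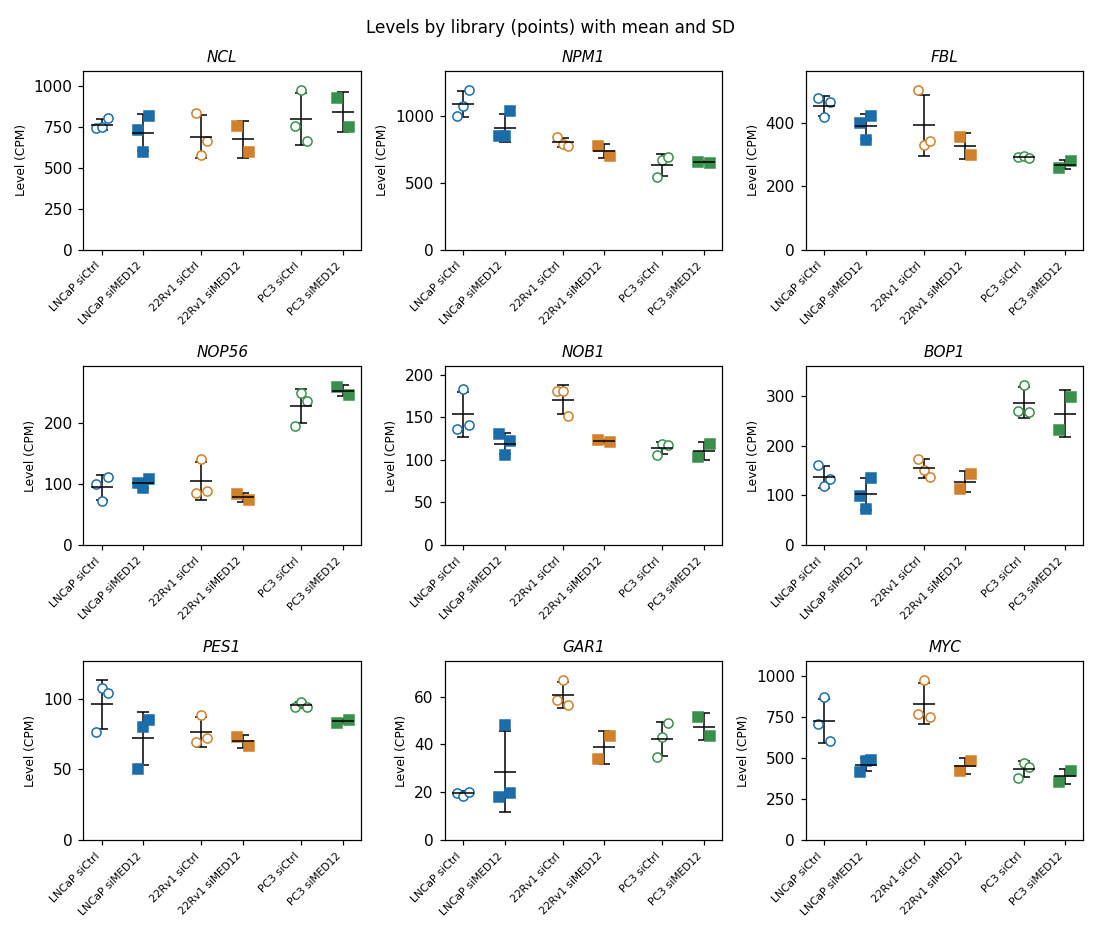
Level in CPM (y axis, linear, from 0) of 8 members and MYC in each library (points, open for siCtrl and filled for siMED12), with the mean and SD of each group. NOB1 is lower in siMED12 than in siCtrl in LNCaP and 22Rv1 without overlap, GAR1 is high in 1 LNCaP siMED12 library at 48 CPM, and MYC is lower in siMED12 in LNCaP and 22Rv1.

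The groups did not overlap for 3 members that were higher and 4 that were lower in LNCaP siMED12, for 5 higher and 7 lower in 22Rv1, and for 3 higher and 5 lower in PC3. Over all genes the shares of higher and lower genes without overlap were 5.89 and 6.75% in LNCaP, 13.8 and 12.9% in 22Rv1, and 8.80 and 11.9% in PC3. Without 22Rv1 siMED12 replicate 3, which leaves a single siMED12 library, 7 members were higher and 13 lower without overlap, beside 27.4 and 24.9% of all genes. Without LNCaP siMED12 replicate 2, 3 were higher and 4 lower, beside 12.1 and 8.96% of all genes.

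With 22Rv1 siMED12 replicate 3 left out, the 22Rv1 estimates were -0.47 for NOB1, -0.83 for GAR1, -0.69 for TBL3, -0.29 for NOP56, and -0.14 for FBL on the log2 scale, and no member passed the test. They were -0.050 for NPM1, 0.12 for NCL, -0.011 for DKC1, -1.41 for MED12, and -0.99 for MYC. With LNCaP siMED12 replicate 2 left out, the LNCaP estimates were -0.049 for GAR1 in place of 0.53, -0.21 for BOP1, -0.49 for PES1, -0.33 for TCOF1, and -0.28 for NOB1. They were 0.42 for POLR1A, -0.21 for NPM1, -0.35 for DDX21, 0.018 for NCL, -0.14 for FBL, and -0.39 for MED12, and no member passed the test.

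Per library, the median difference of the 51 genes from the control mean of the line was -0.069 and -0.12 in the 22Rv1 siMED12 libraries, both below the 3 controls of that line. The PC3 siCtrl replicate 1 library was lower still, at -0.17, whereas both PC3 siMED12 libraries were at 0.044. The pooled SD of this median within groups was 0.085. The members together took 0.55% ± 0.026 (SD, n = 3) of all counts in LNCaP siCtrl and 0.532% ± 0.029 (SD, n = 3) in LNCaP siMED12, 0.533% ± 0.031 (SD, n = 3) and 0.502% ± 0.021 (SD, n = 2) in 22Rv1, and 0.567% ± 0.053 (SD, n = 3) and 0.60% ± 0.028 (SD, n = 2) in PC3.

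**Figure D3:**
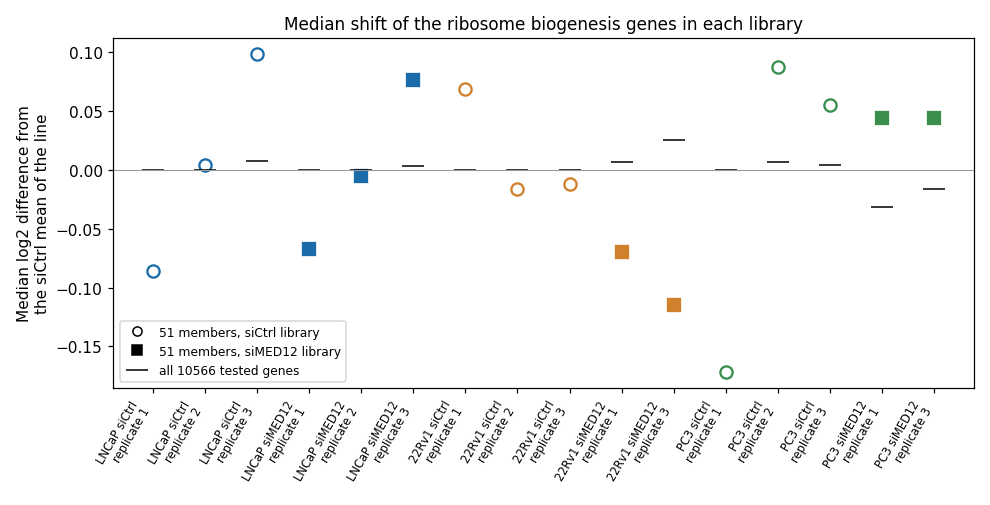
Median log2 difference (y axis) from the siCtrl mean of the same line in each of the 16 libraries (x axis), for the 51 members (open circles siCtrl, filled squares siMED12) and for all 10566 tested genes (bars). The 22Rv1 siMED12 libraries lie at -0.069 and -0.12, and the lowest library of all is PC3 siCtrl replicate 1 at -0.17.

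MYC is not a member and was followed because it is an activator of this pathway. It was at 706, 869, and 604 CPM in LNCaP siCtrl and at 413, 479, and 489 CPM in siMED12, and it fell by 0.65 on the log2 scale (SE 0.14, edgeR adjusted p = 0.0151). In 22Rv1 it was at 770, 973, and 751 CPM in siCtrl and at 419 and 484 CPM in siMED12, and it fell by 0.88 on the log2 scale (SE 0.15, edgeR adjusted p = 0.000897). In PC3 it was at 377, 472, and 446 CPM in siCtrl and at 356 and 419 CPM in siMED12 (log2 fold change -0.17, SE 0.16, edgeR adjusted p = 0.978). The call in LNCaP was lost without siCtrl replicate 1 (log2 fold change -0.65, adjusted p = 0.052), siCtrl replicate 2 (-0.49, adjusted p = 0.275), siMED12 replicate 1 (-0.58, adjusted p = 0.0836), or siMED12 replicate 2 (-0.68, adjusted p = 0.0679). The call in 22Rv1 was lost without siMED12 replicate 1 (-0.78, adjusted p = 0.0548). The effect in PC3 minus that in LNCaP was 0.49 (SE 0.21, edgeR adjusted p = 0.941), and minus that in 22Rv1 it was 0.71 (SE 0.22, unadjusted p = 0.00275, edgeR adjusted p = 0.239).

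The promoters of the members were searched for CACGTG, which reads the same on both strands, from 250 bases before to 50 bases after each RefSeq start site. Of the 52 genes, 44 had a RefSeq promoter, and 21 of these (47.7%) held the sequence in at least 1 window, compared with 13.5% of the tested genes and 8.77% of all genes with a promoter. In 129 other ribosome biogenesis genes it was 25.2% of those matched. Because the list was drawn up as holding many MYC targets, the share among its members is partly built in. It is a description of this list and not of the pathway. Of 24 sites, 20 lay within 100 bases of a start site. A match is a description of the sequence and not of binding. The stretches below, of 30 bases and from RefSeq on GRCh38.p14, are shown for members whose values are given here, with the E-box in capitals, read 5' to 3' on the strand of the gene. Coordinates are those of the stretch, and each distance runs from the start site to the first base of the E-box. The FBL stretch lies at chr19:39846356-39846385 on the minus strand, with its E-box 6 bases after the start site. GAR1 lies at chr4:109815781-109815810 on the plus strand, 31 bases after it. PES1 lies at chr22:30591880-30591909 on the minus strand, 13 bases after it. DDX21 lies at chr10:68956604-68956633 on the plus strand, 31 bases before it. MRTO4 lies at chr1:19251807-19251836 on the plus strand, 14 bases after it. NOP10 lies at chr15:34343130-34343159 on the minus strand, 11 bases before it. UTP4 lies at chr16:69132621-69132650 on the plus strand, 16 bases before it.
FBL: tgcgctcttttcCACGTGcgaaagccccgg
GAR1: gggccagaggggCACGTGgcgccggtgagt
PES1: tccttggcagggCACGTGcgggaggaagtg
DDX21: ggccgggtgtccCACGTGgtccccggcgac
MRTO4: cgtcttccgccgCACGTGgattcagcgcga
NOP10: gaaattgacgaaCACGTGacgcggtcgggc
UTP4: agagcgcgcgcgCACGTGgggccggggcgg

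The 20 tested members with the E-box had a median log2 fold change of -0.027 in LNCaP, -0.11 in 22Rv1, and -0.045 in PC3. The 23 matched members without it had medians of 0.0067, -0.13, and -0.0046. In 22Rv1, 13 of the 20 and 19 of the 23 estimates were below 0.

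The control spheroids were compared to ask how the machinery differs between the lines, and here many genes passed the test. Between 22Rv1 and LNCaP, 11 members were higher in 22Rv1 and 10 lower, 21 of 51 in all, beside 43.2% of all genes (22.0% higher and 21.2% lower). Between PC3 and LNCaP, 15 were higher in PC3 and 8 lower, beside 54.7% of all genes (29.2% higher and 25.5% lower). Between PC3 and 22Rv1, 12 were higher in PC3 and 7 lower, beside 54.9% of all genes (28.7% higher and 26.1% lower). The 3 comparisons share control libraries. MRTO4, NOP10, and NPM1 passed the test in each comparison. The share of all genes that did so is not given here, so this is a description only.

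**Figure D4:**
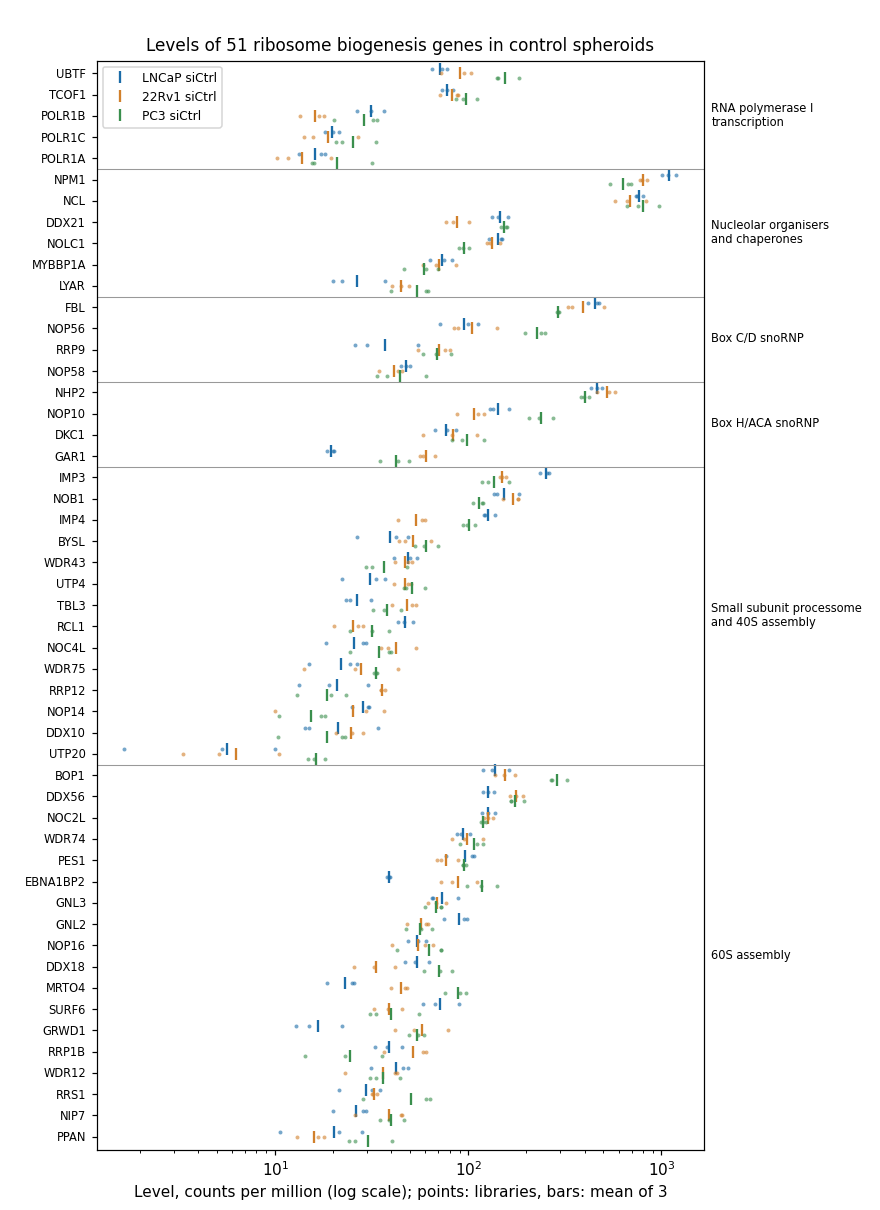
Level in CPM (x axis, log scale) of the 51 tested genes (y axis, grouped by role) in the siCtrl libraries of LNCaP, 22Rv1, and PC3, with points for libraries and bars for the mean of 3. MRTO4 rises from LNCaP to 22Rv1 to PC3 without overlap, whereas NPM1 falls in that order.

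MRTO4, a placeholder protein of the 60S stalk, was at 24.9, 18.6, and 25.4 CPM in LNCaP, at 48.1, 46.8, and 39.8 CPM in 22Rv1, and at 76.1, 96.7, and 91 CPM in PC3. It was 1.92 higher in PC3 than in LNCaP on the log2 scale (SE 0.22, edgeR adjusted p = 4.91e-09) and 0.98 higher than in 22Rv1 (SE 0.19, edgeR adjusted p = 6.48e-05). EBNA1BP2, a 60S assembly factor, was at 38.1, 38.7, and 39.2 CPM in LNCaP, at 111, 81.9, and 71.9 CPM in 22Rv1, and at 98, 117, and 140 CPM in PC3. It was 1.6 higher in PC3 than in LNCaP (SE 0.23, edgeR adjusted p = 6.5e-07), and PC3 and 22Rv1 overlapped. GRWD1, a histone-binding protein that also acts in 60S assembly, was lowest in LNCaP with 14.9, 12.9, and 22.3 CPM, against 52.1, 41.8, and 78.3 CPM in 22Rv1 (log2 difference 1.75, SE 0.32, edgeR adjusted p = 4.14e-05).

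The snoRNP genes differed in both directions. GAR1 was 1.61 higher in 22Rv1 than in LNCaP on the log2 scale (SE 0.29, edgeR adjusted p = 2.7e-05). NOP56 was at 196, 250, and 237 CPM in PC3, above the 71.6 to 112 CPM of LNCaP and the 84.6 to 140 CPM of 22Rv1, and was 1.26 higher than in LNCaP (SE 0.17, edgeR adjusted p = 2.49e-07). NOP10 was at 205, 232, and 275 CPM in PC3 and at 112, 120, and 87.3 CPM in 22Rv1 (log2 difference 1.16, SE 0.16, edgeR adjusted p = 2.45e-07). FBL was lower in PC3 than in LNCaP, at 290, 294, and 288 CPM (log2 difference -0.64, SE 0.14, edgeR adjusted p = 0.000247).

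UBTF was 1.11 higher in PC3 than in LNCaP on the log2 scale (SE 0.17, edgeR adjusted p = 1.27e-06), with 141, 183, and 143 CPM against 64.6, 73, and 77.4 CPM. NPM1 was at 541, 670, and 692 CPM in PC3 and lower than in LNCaP (log2 difference -0.78, SE 0.12, edgeR adjusted p = 9.07e-07). NCL passed the test in none of the comparisons, and its 95% interval between PC3 and LNCaP ran from -0.22 to 0.36.

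Among the small subunit genes, IMP3 and IMP4 bind the U3 snoRNA and were both highest in LNCaP. IMP3 was at 260, 236, and 257 CPM there, and was lower in PC3 (log2 difference -0.90, SE 0.15, edgeR adjusted p = 6.46e-06). IMP4 was at 121, 122, and 138 CPM in LNCaP and at 59.9, 43.5, and 57.7 CPM in 22Rv1 (log2 difference -1.23, SE 0.19, edgeR adjusted p = 4.98e-06). Among the 60S genes, BOP1 was at 271, 323, and 269 CPM in PC3 and was 0.90 higher than in 22Rv1 (SE 0.17, edgeR adjusted p = 3.24e-05). RRP1B was lower in PC3 than in 22Rv1, at 14.2, 35.7, and 23.1 CPM against 36.4, 58.5, and 60.3 CPM (log2 difference -1.03, SE 0.29, edgeR adjusted p = 0.0031). NOC2L, a 60S export factor, had a log2 difference of -0.0015 between 22Rv1 and LNCaP and a 95% interval from -0.30 to 0.29.

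Of 129 further genes of the pathway, 119 were tested and 0 passed in LNCaP, 22Rv1, or PC3 after siMED12. Their median log2 fold changes were -0.045, -0.046, and -0.011. At an unadjusted p under 0.05 there were 8, 8, and 4 genes, against 7.34, 11.7, and 4.99% of all genes. In control spheroids, 20 were higher and 11 lower in 22Rv1 than in LNCaP, 38 higher and 21 lower in PC3 than in LNCaP, and 23 higher and 27 lower in PC3 than in 22Rv1. These are 26.1, 49.6, and 42.0% of the 119 genes, beside 43.2, 54.7, and 54.9% of all genes. Examples are NMD3, the 60S export adaptor, 2.49 higher in 22Rv1 than in LNCaP on the log2 scale (SE 0.34), and DCAF13, a processome protein, 1.99 higher in PC3 than in LNCaP (SE 0.18).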

How the data were processed

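High-throughput 3' RNA-seq (BRB-seq) was analysed in 16 spheroid libraries. The authors aligned reads and counted genes with STARsolo on GRCh38.p13 (submitters' processing notes), and the deposited values are raw counts per gene. Whether UMIs were collapsed is not given in the sources used here. The deposited table of log2 CPM was used for an alternative with limma, for the median differences per library, and for the correlations between samples of the same replicate number. Genes were kept with the edgeR function filterByExpr (minimum count 10, minimum total 15, 6 groups), scaled by TMM, and fitted over all 16 libraries with the quasi-likelihood test in R 4.3.3 (edgeR 4.0.16), with Benjamini-Hochberg adjustment over 10566 genes and a threshold of 0.05. DESeq2 1.42.0 and limma 3.58.1 were alternatives. CPM were taken over the TMM-scaled counts of the tested genes in a library, and SE and intervals came from the fit. For the numbers of genes without overlap when a library was left out, CPM were taken over all counts. Replicates were checked for duplicates, and none differed by less than sampling noise. Gene lists and members were chosen with earlier results of these data known. In each siMED12 comparison, 11 fixed genes and the members past the threshold, or otherwise the 3 of smallest p, could be named. In control comparisons, the 5 highest and 5 lowest members called at 20 CPM or more and the 3 least different at 50 CPM or more could be named, and other members were named after their values were seen. Gene positions came from Gencode 44.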

Additional observations from a re-analysis of the deposited data

How the results depend on the processing

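No member passed the test after siMED12 in any line under any of the settings tried, and the lowest edgeR adjusted p was 0.212 in LNCaP, 0.131 in 22Rv1, and 0.589 in PC3. Of 1373 values of single genes under alternatives, 23 lost significance, 20 moved, and 0 reversed. Many of the 1373, among them all values of members after siMED12, did not pass in the main fit and could not lose significance. DESeq2 called 13 members between 22Rv1 and LNCaP controls in place of 21, and over all genes 3408 in place of 4564. The cause was not tested. Leaving out 1 library at a time, the median log2 fold change of the members ran from -0.076 to 0.028 in LNCaP, from -0.13 to -0.076 in 22Rv1, and from -0.096 to 0.076 in PC3. Samples with the same replicate number shared deviations weakly (r from 0.079 to 0.253 over 7 pairs, each correlating best with its own number), and the labels do not say what a number marks. With a replicate block the medians were -0.0038, -0.13, and 0.068, 0 members passed, and all genes called rose from 44 to 117 in LNCaP, from 194 to 312 in 22Rv1, and from 0 to 20 in PC3. Members at an unadjusted edgeR p under 0.05 rose with the block from 5 to 10 in LNCaP, from 3 to 8 in 22Rv1, and from 0 to 2 in PC3. The share of all genes at that p with the block is not given here. The main fit and its SE did not use the replicate numbers. The 22Rv1 values rest on 2 siMED12 libraries, and low counts per gene limit what could be seen.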
